A study of Rattus norvegicus with 26 samples.

Results

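Apolipoproteins and plasma carrier proteins made by the visceral endoderm were followed on the arrays as 10 genes: Apoa1, Apoa2, Apoa4, Apob, Apoe, Ttr, Rbp4, Afp, Tf and Cubn. Each gene was read through the probe that carries its name and had the highest mean log2 intensity over all 26 arrays. Of the 10 genes, 10 had a probe and 10 passed the filter on dim probes, out of 41012 different gene probes on the array and 24442 that were tested.

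The arrays measured RNA of rMAPCs, Oct4-expressing multipotent adult progenitor cells cloned from rat bone marrow, during their differentiation to smooth muscle cells (SMCs). The clones Cl19 (labelled Cl-19, from a 3 week old animal) and 3c3 (from an animal of age E18) both came from female Fischer rats. Per the methods, cells of both clones were plated with TGFβ1 and PDGF-BB in basal rMAPC medium without serum. RNA was taken on d0, before that treatment, and on d2, d4 and d6, with 3 arrays per line and day. No array followed untreated cells over these days, so that effects of the factors, the medium, plating and time cannot be told apart. The other 2 arrays carried primary SMC RNA, described in the labels as purchased rat aortic RNA and in the methods as RNA of primary smooth muscle cells from another supplier. Each line is 1 clone. The methods call the 3 arrays of a line and day biological replicates, no source used here says what separates the 2 primary SMC arrays, and p-values measure only the spread between these arrays.

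The visceral endoderm is the outer epithelium of the early embryo that feeds it before the placenta and the liver take over. It secretes apolipoproteins, which package lipid into lipoprotein particles, and carriers such as transthyretin, retinol-binding protein, alpha-fetoprotein and transferrin, and it takes up nutrients with the receptor cubilin. The fetal liver later makes most of the same proteins, so that these genes do not tell visceral endoderm from hepatocytes on their own.

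The probe sequences are shown for Apoa1 and for Apob because the largest differences between the lines rested on them. The Apob probes also differed in intensity and in their calls in 3c3. All letters are lower case, since no stretch within them was singled out. The Apoa1 probe has no position in the array annotation on the rat assembly rn4, and the Apob probes lie on the plus strand at chr6:31547488-31547547 for probe Apob 1, chr6:31536084-31536143 for probe Apob 2 and chr6:31546292-31546351 for probe Apob 3.
Apoa1: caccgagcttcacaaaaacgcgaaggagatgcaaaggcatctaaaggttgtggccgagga
Apob 1: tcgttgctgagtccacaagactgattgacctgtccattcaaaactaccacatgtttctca
Apob 2: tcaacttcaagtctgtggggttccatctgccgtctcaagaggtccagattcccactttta
Apob 3: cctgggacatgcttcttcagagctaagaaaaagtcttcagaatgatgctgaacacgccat

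Promoter sequence is shown for 3 members that moved differently over time, Afp (rose in both lines), Tf (no change from d0 to d6 past the test) and Cubn (fell in both lines). The sequences are the 250 bases before the gene start in RefSeq on GRCr8, at chr14:17875646-17875895, chr8:112695377-112695626 and chr17:81501695-81501944, all on the minus strand. Capitals mark matches on either strand to 3 motifs known from liver and visceral endoderm promoters. The letters searched for the nuclear receptor HNF4 were GTCAAAG. Forkhead factors of the FOXA group were represented by TGTTTNC. The letters of the TATA box were TATAAA.
Afp: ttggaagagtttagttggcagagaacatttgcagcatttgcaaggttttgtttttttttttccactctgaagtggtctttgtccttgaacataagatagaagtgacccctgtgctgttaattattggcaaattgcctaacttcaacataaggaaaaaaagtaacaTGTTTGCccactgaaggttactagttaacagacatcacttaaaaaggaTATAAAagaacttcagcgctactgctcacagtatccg
Tf: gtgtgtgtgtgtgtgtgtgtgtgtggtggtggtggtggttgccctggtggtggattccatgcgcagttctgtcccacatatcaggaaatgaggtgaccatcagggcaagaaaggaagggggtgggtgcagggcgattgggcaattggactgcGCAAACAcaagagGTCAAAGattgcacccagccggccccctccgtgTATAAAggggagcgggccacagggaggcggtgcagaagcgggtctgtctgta
Cubn: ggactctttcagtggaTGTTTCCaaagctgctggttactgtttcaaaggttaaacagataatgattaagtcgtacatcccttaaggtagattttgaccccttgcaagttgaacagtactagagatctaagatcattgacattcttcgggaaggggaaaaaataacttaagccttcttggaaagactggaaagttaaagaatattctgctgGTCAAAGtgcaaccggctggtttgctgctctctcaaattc
Of all 33469 promoters of that length, 3.1% held the HNF4 letters, 18.3% the FOXA letters and 12.9% the TATA letters. Afp had 1 match to the FOXA and the TATA letters, Tf had 1 to the HNF4, the FOXA and the TATA letters, and Cubn had 1 to the HNF4 and the FOXA letters. RefSeq promoters were given for 7 members, with no entry for Apoa1, Apoa2 and Apob. The letters AGATAA of GATA factors, in 10.3% of all promoters, and CAGAC of the SMAD binding element, in 42.9%, were searched too and are not in capitals; Cubn had 1 match to the first, and Afp had 1 and Tf had 2 to the second. Of the other members with a promoter, Apoa4 had no match to any of these letters, Rbp4 had 1 to the TATA letters and Ttr had 1 to the FOXA letters. Apoe had 1 match to the FOXA letters and matches to the SMAD letters, at some of its gene starts only. None of the searched letters was thus present in all of Apoa4, Ttr, Rbp4 and Afp, the genes that rose in both lines and had a promoter entry. Other motifs and sequence further away were not searched, so that a shared motif was not tested. A match says only that these letters are present.

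Over the 6 days, 6 of the 9 genes for secreted proteins rose in both lines, and the gene for the uptake receptor Cubn fell in both. Apoa2, Apoe and Tf did not rise in both lines. The rise of Apob in 3c3 stands on 1 probe and missed the threshold with normexp background correction, as described below. In Cl19, 6 members were higher on d6 than on d0 (Apoa1, Apoa4, Apob, Ttr, Rbp4 and Afp) and 1 was lower (Cubn), at adjusted p under 0.05 by limma with Benjamini-Hochberg adjustment over all tested probes. Of all tested probes 22.0% were higher and 30.3% lower in that comparison. In 3c3, 8 members were higher (the same 6 genes, Apoa2 and Apoe) and 1 was lower (Cubn), where 19.7% of all tested probes were higher and 28.6% lower. Apob and Rbp4 passed the filter only through groups after d0, so that their direction against d0 was largely set by the filter. Their part in the counts against d0 is therefore not like the share over all probes. The median change over the 10 members was 5.33 on the log2 scale in Cl19 and 5.38 in 3c3, beside −0.20 and −0.21 over all tested probes. The 3c3 median rests on genes at background on d0: it was 3.91 with dim values set to the lowest intensity above background (5.33 in Cl19), and with normexp background correction the medians were 3.20 in Cl19 and 1.54 in 3c3. In RNA of a whole culture, a change in the RNA per cell and a change in the share of cells that make it cannot be told apart.

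The direction of the change over all probes depended on the scaling. Without normalization between arrays, in the deposited log2 table, 6771 probes were higher and 5396 lower on d6 in Cl19 against 5371 and 7394 after quantile normalization, and 6167 and 4758 in 3c3 against 4803 and 6989. The median change then moved to 0.10 in Cl19 and 0.09 in 3c3. Apart from those of Apoe, the members' changes were larger than this shift. The calls of Apoe and Tf depended on the scaling, as described below.

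**Figure D1:**
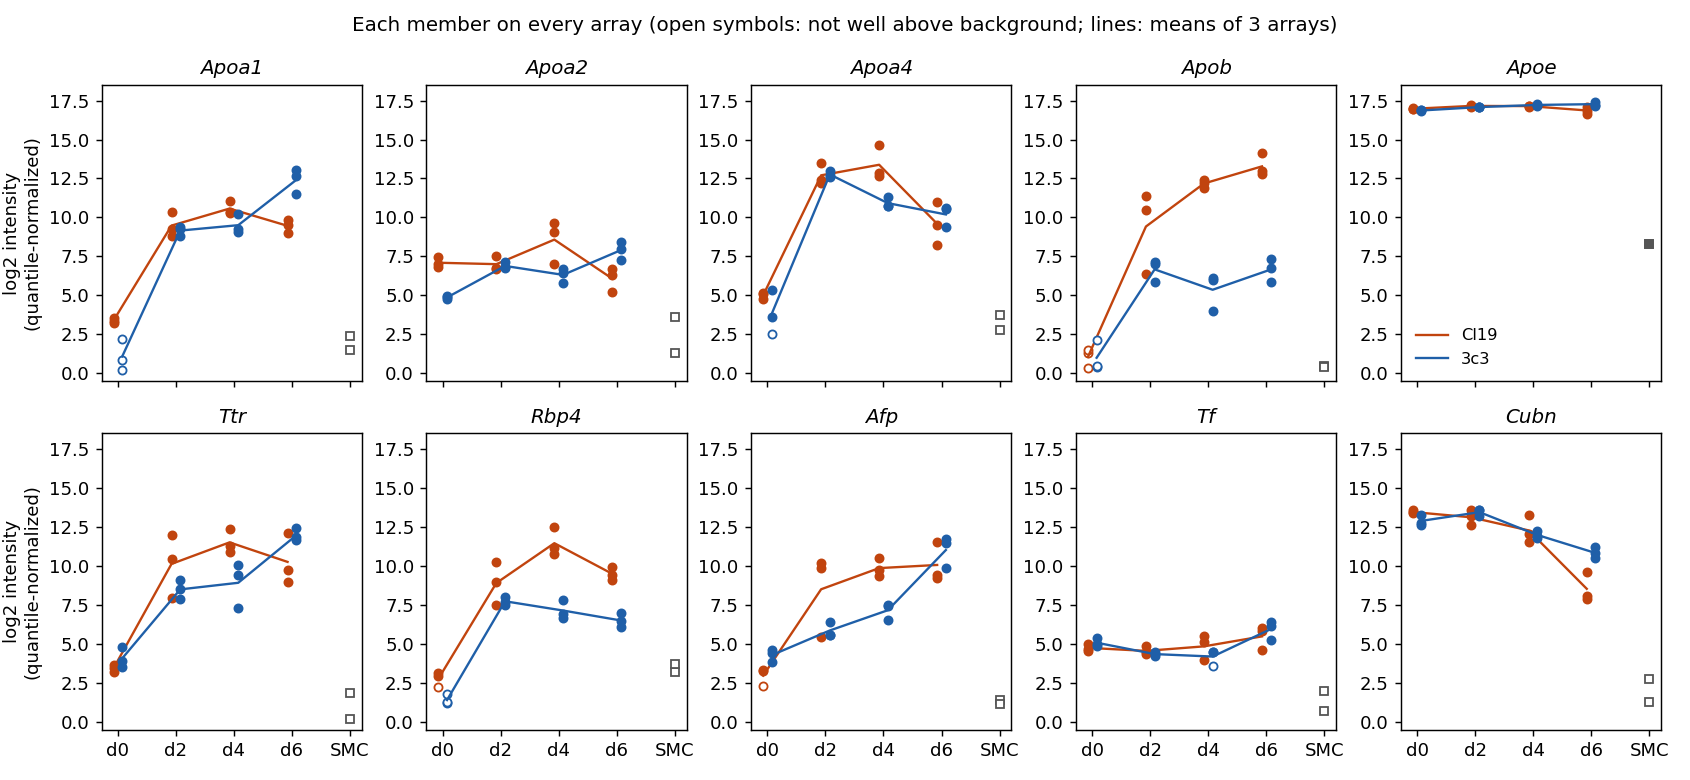
Quantile-normalized log2 intensity of each of the 10 genes (y axis) on d0, d2, d4 and d6 and in primary SMC RNA (x axis), with 1 point per array, red for Cl19, blue for 3c3 and grey squares for primary SMCs. Open symbols were not well above background; Apoe lies between 16.64 and 17.39 on all 24 rMAPC arrays, Apoa1, Apoa4, Apob, Ttr, Rbp4 and Afp start low and rise, and Cubn falls.

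The main protein of high-density lipoprotein, Apoa1, rose in both lines. In Cl19 it measured 3.39, 3.25 and 3.53 on d0 and 9.54, 8.999 and 9.85 on d6, a difference of 6.07 (SE 0.49, adjusted p = 6.3e-09 by limma) or 67.4-fold. In 3c3 the d0 arrays, at 0.85, 2.22 and 0.19, were all at background, and d6 arrays measured 11.51, 12.66 and 13.05, a rise of at least 854-fold (adjusted p = 5.4e-12 by limma). The d0 and d6 arrays did not overlap in either line. Bounds such as this one set each dim value to the lowest intensity well above background on its array, or keep it where it is higher, with those lowest intensities between 1.52 and 4.22 on the log2 scale.

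From d0 to d2 it rose by 6.09 (SE 0.49) in Cl19 and at least 89.8-fold in 3c3. The Cl19 mean was 9.48 ± 0.79 on d2, moved to 10.57 ± 0.43 by d4 and was 9.46 ± 0.43 at the end (SD, n = 3), and neither later step passed the test (adjusted p = 0.13 and 0.22 by limma). In 3c3 the mean was 9.16 ± 0.30 on d2 and 9.505 ± 0.63 on d4, and it rose by 2.90 (SE 0.49, adjusted p = 0.0012 by limma) to 12.41 ± 0.80 on d6 (SD, n = 3).

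Apoa4, a protein of triglyceride-rich particles whose gene lies in a cluster with Apoa1, Apoc3 and Apoa5 in the RefSeq annotation, rose at once and then lost part of the rise. In Cl19 it went from 4.76, 5.17 and 5.08 on d0 to 12.42, 12.18 and 13.51 on d2, and measured 9.51, 8.25 and 11.01 on d6. The rise from d0 to d2 was 7.70 (SE 0.68, adjusted p = 1.2e-07) and the fall from d4 to d6 was −3.79 (SE 0.68, adjusted p = 0.0018, both by limma). In 3c3 it went from 2.54, 5.34 and 3.62 on d0, the first of these not well above background, to 12.96, 12.57 and 12.75 on d2 and 10.64, 9.40 and 10.54 on d6. No later step of Apoa4 passed the test in 3c3 (−1.84 from d2 to d4, adjusted p = 0.096, and −0.73 from d4 to d6, adjusted p = 0.58, by limma). Over the whole course Apoa4 was 24.1-fold higher in Cl19 and 82.2-fold higher in 3c3.

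Apoa2, the other structural protein of high-density lipoprotein, moved differently in the 2 lines. In Cl19 it measured 6.82, 7.01 and 7.46 on d0 and 6.32, 5.21 and 6.69 on d6, a difference of −1.02 (SE 0.58) that did not pass the test (adjusted p = 0.15 by limma), although the highest d6 array was below the lowest d0 array. It reached 9.64, 7.01 and 9.09 on d4 in Cl19 and fell from there to d6 by 2.51 (SE 0.58, adjusted p = 0.012 by limma). In 3c3 it measured 4.96, 4.79 and 4.87 on d0 and 7.30, 8.45 and 7.98 on d6, an 8.22-fold rise (log2 difference 3.04, SE 0.58, adjusted p = 0.00025 by limma). The d0 levels themselves differed, with Cl19 higher by 2.23 (SE 0.58, adjusted p = 0.039 by limma), but each line was scanned on a day of its own, so that line and scan day cannot be told apart for levels.

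Apob, the large structural protein of very low-density and low-density lipoprotein, started at background on all 6 d0 arrays of both lines. The gene passed the filter only through groups after d0, so that an upward direction against d0 was largely set by the filter. Probe Apob 1 measured 1.31, 0.37 and 1.49 on d0 in Cl19 and 12.76, 12.96 and 14.11 on d6, a rise of at least 1908-fold (adjusted p = 1.8e-09 by limma). In 3c3 it measured 2.13, 0.39 and 0.48 on d0 and 7.34, 5.85 and 6.78 on d6, a rise of at least 15.9-fold (adjusted p = 3.9e-05 by limma). All d6 arrays of Cl19 were above all d6 arrays of 3c3. The rise in 3c3 was present by d2 (6.67 ± 0.71, SD, n = 3), while the mean in Cl19 went from 9.42 ± 2.68 on d2 through 12.18 ± 0.26 to 13.28 ± 0.73 on d6 (SD, n = 3).

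Other Apob probes, whose sequences are given above, differed from probe Apob 1 in 3c3. Probes Apob 2 and Apob 3 rose from d0 to d6 in Cl19 by 6.62 (SE 0.69, adjusted p = 1.5e-07) and 8.14 (SE 0.85, adjusted p = 1.6e-07, both by limma). In 3c3 they changed by 0.55 (SE 0.69, adjusted p = 0.55) and 0.95 (SE 0.85, adjusted p = 0.38, both by limma), and of the 3 d6 arrays of 3c3, 0 were well above background for Apob 2 and 1 for Apob 3. The rise of Apob in 3c3 therefore stands on 1 probe, and it also missed the threshold with normexp background correction (adjusted p = 0.067 by limma). Probes Apob 2 and Apob 3 were dimmer, with means of 7.46 and 8.80 on d6 of Cl19 against 13.28 for Apob 1. A rise to the d6 level of Apob 1 in 3c3 (mean 6.66) may lie below what they can show. They therefore cannot decide whether Apob rose in 3c3. Another 2 Apob probes were too dim in every group to be tested.

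**Figure D2:**
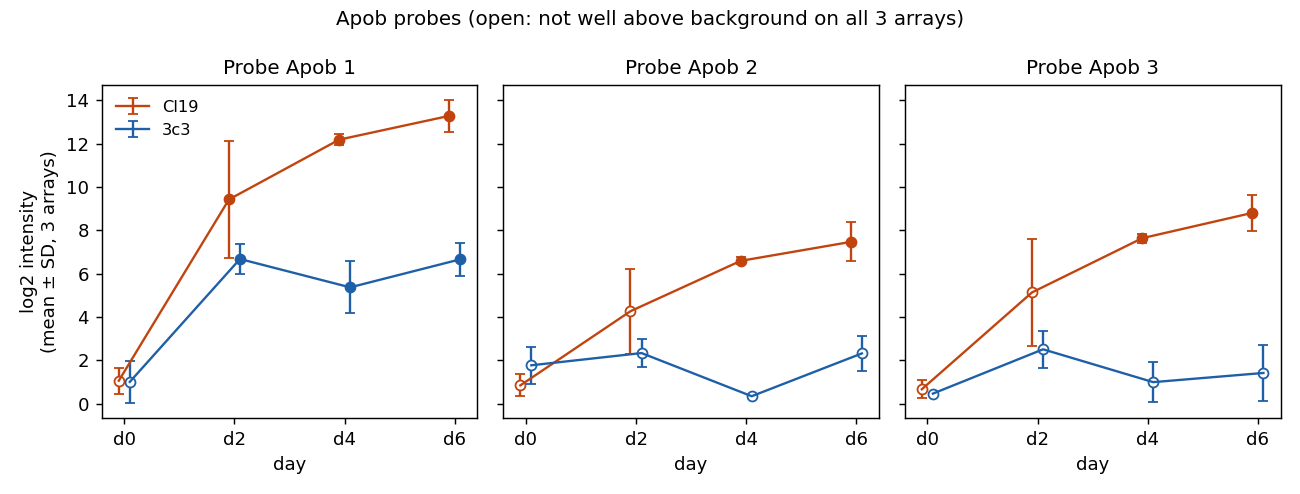
Log2 intensity (mean ± SD of 3 arrays, y axis) of the 3 tested Apob probes on d0 to d6 (x axis), red for Cl19 and blue for 3c3; open points were not well above background on all 3 arrays. All 3 probes rise in Cl19, and in 3c3 only Apob 1 is above background throughout d2 to d6.

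Apoe, which carries cholesterol to receptors of the LDL receptor family and is made by many tissues, was at a high and nearly constant level in rMAPCs. It lay between 16.64 and 17.39 on all 24 rMAPC arrays. In 3c3 it went from 16.88, 16.82 and 16.88 on d0 to 17.17, 17.24 and 17.39 on d6, a rise of 0.41 (SE 0.11, adjusted p = 0.0047 by limma) or 1.33-fold. In Cl19 it changed from 16.94, 16.95 and 17.01 to 16.84, 16.64 and 17.11, a difference of −0.10 (SE 0.11, adjusted p = 0.45 by limma) with overlapping arrays. This small difference followed the scaling: with scaling by the 75th percentile the change in 3c3 was 0.08 (adjusted p = 0.72) and that in Cl19 was −0.38 (adjusted p = 0.046, both by limma).

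Transthyretin (Ttr), which carries thyroid hormone and binds the retinol-binding protein Rbp4, rose in both lines. It measured 3.46, 3.21 and 3.62 on d0 and 9.72, 8.95 and 12.11 on d6 in Cl19, a 114-fold rise (log2 difference 6.83, SE 0.89, adjusted p = 2.6e-06 by limma). In 3c3 it went from 4.78, 3.89 and 3.55 to 11.83, 11.66 and 12.40, a 238-fold rise (log2 difference 7.89, SE 0.89, adjusted p = 7.2e-07 by limma). As for Apoa1, a further rise from d4 to d6 passed the test in 3c3 (3.04, SE 0.89, adjusted p = 0.034 by limma), beside −1.25 (adjusted p = 0.53 by limma) in Cl19; for neither gene was the difference between the lines in this step tested. Another probe that carries the Ttr name stayed at background throughout. It lies on the minus strand, opposite to the probe used here, and nothing is drawn from it.

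Rbp4, the plasma carrier of retinol, rose early and peaked before d6. In Cl19 it measured 3.14, 2.22 and 2.92 on d0, the second of these not well above background, then 12.47, 10.75 and 11.17 on d4 and 9.93, 9.42 and 9.13 on d6. The fall from d4 to d6 was −1.97 (SE 0.52, adjusted p = 0.028 by limma), and d6 remained 106-fold above d0. In 3c3 no d0 array was well above background (1.18, 1.25 and 1.77), and d6 arrays measured 6.07, 6.46 and 6.98, at least 14.2-fold higher (adjusted p = 2.4e-07 by limma). In 3c3 the steps after d2 were −0.59 and −0.64 (adjusted p = 0.54 and 0.51 by limma).

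Alpha-fetoprotein (Afp), the main albumin-like carrier of fetal serum, rose in both lines, with different steps past the test. In Cl19 it went from 3.33, 3.28 and 2.28 on d0, the last of these not well above background, to 9.39, 9.26 and 11.54 on d6, a 137-fold rise (log2 difference 7.10, SE 0.88, adjusted p = 1.3e-06 by limma), most of it by d2 (5.54, SE 0.88, adjusted p = 0.00011 by limma). In 3c3 it went from 4.58, 4.42 and 3.85 to 9.86, 11.73 and 11.47, a 107-fold rise (log2 difference 6.74, SE 0.88, adjusted p = 4.1e-06 by limma). The first step of 3c3 was 1.58 (SE 0.88, adjusted p = 0.24) and the last was 3.86 (SE 0.88, adjusted p = 0.0084, both by limma). Whether the early steps of the lines differed was not tested.

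Transferrin (Tf), the iron carrier of plasma, changed least among the carriers. It measured 4.98, 4.57 and 4.70 on d0 and 4.62, 6.00 and 5.83 on d6 in Cl19 (difference 0.73, SE 0.42, adjusted p = 0.15 by limma). In 3c3 it measured 4.998, 5.35 and 4.88 on d0 and 5.25, 6.43 and 6.16 on d6 (difference 0.87, SE 0.42, adjusted p = 0.096 by limma). The d0 and d6 arrays overlapped in both lines, with the intervals of the change reaching from −0.14 to 1.61 in Cl19 and from −0.01 to 1.74 in 3c3. Only the step from d4 to d6 in 3c3 passed the test (1.76, SE 0.42, adjusted p = 0.011 by limma). Without the first d6 array the changes were 1.17 in Cl19 and 1.21 in 3c3 and passed the test (adjusted p = 0.030 and 0.032 by limma). The call also depended on the normalization: in the deposited table the changes were 1.17 and 1.25 and passed (adjusted p = 0.040 and 0.031), and with normexp that of 3c3 passed (adjusted p = 0.042, all by limma).

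Cubn encodes cubilin, the endocytic receptor for intrinsic factor with vitamin B12, for albumin and for Apoa1, and it was the member that fell. In Cl19 it measured 13.57, 13.37 and 13.44 on d0 and 7.90, 8.09 and 9.61 on d6, a fall of 30.4-fold (log2 difference −4.93, SE 0.45, adjusted p = 2.7e-08 by limma). In 3c3 it measured 12.64, 12.78 and 13.26 on d0 and 10.50, 10.81 and 11.19 on d6, a fall of 4.17-fold (log2 difference −2.06, SE 0.45, adjusted p = 0.00082 by limma). The arrays of d0 and d6 did not overlap in either line. In Cl19 Cubn was already lower on d4 than on d0 (−1.18, SE 0.45, adjusted p = 0.036 by limma), though neither step up to d4 passed (−0.34 and −0.85), and it fell further from d4 to d6 (−3.74, SE 0.45, adjusted p = 9.4e-05 by limma). In 3c3 the step from d2 to d4 passed (−1.47, SE 0.45, adjusted p = 0.047 by limma), and the step after it did not (−1.15, adjusted p = 0.11 by limma).

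**Figure D3:**
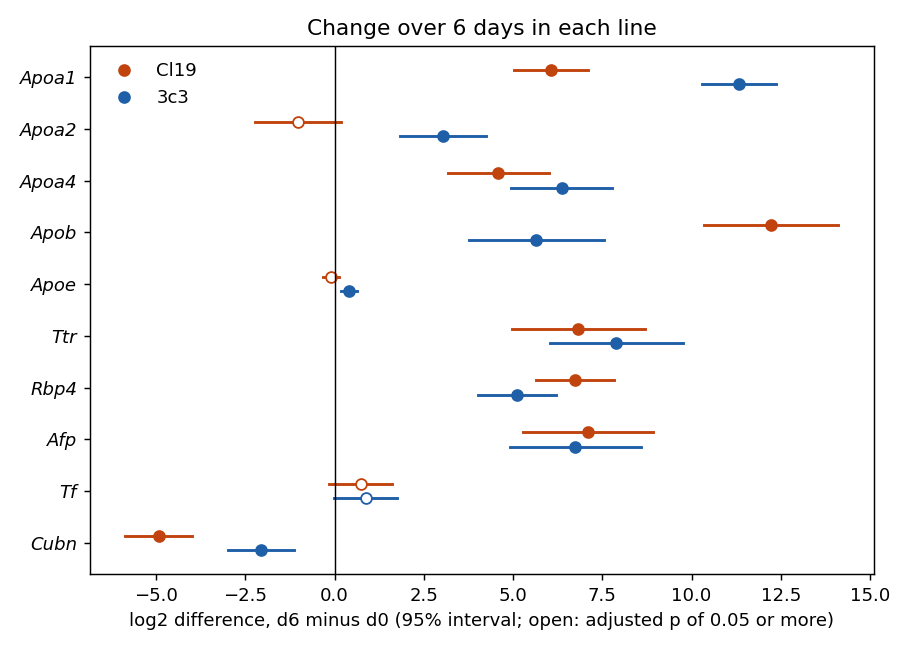
Difference in log2 intensity between d6 and d0 (x axis) for each of the 10 genes (y axis) with its 95% interval from limma, red for Cl19 and blue for 3c3; open points did not pass the adjusted p of 0.05. Apoa1, Apoa4, Apob, Ttr, Rbp4 and Afp lie to the right of 0 in both lines, and Cubn lies to the left, at −4.93 in Cl19 and −2.06 in 3c3; the points of Apob in both lines and of Apoa1 and Rbp4 in 3c3 are against d0 values at background and are not measured folds.

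Timing over all members was as follows. The F-test over the 4 days passed for 8 of 10 members in Cl19 (all but Apoe, adjusted p = 0.074, and Tf, adjusted p = 0.25, by limma), where 54.3% of all tested probes passed, and for 10 of 10 in 3c3, where 50% passed. From d0 to d2, 6 members changed in each line, all upward, beside 22.6% of tested probes in Cl19 and 19.1% in 3c3. From d2 to d4, Apob and Rbp4 rose in Cl19 (20.6% of probes changed) and Cubn fell in 3c3 (8.71% changed). From d4 to d6, 4 members fell in Cl19 (Apoa2, Apoa4, Rbp4 and Cubn, with 6.95% of probes changed) and 4 rose in 3c3 (Apoa1, Ttr, Afp and Tf, with 10.5% changed). These steps were sensitive to single arrays: leaving out any 1 array or slide of d2 or d4 in 3c3 left no member past the test from d2 to d4, and from d4 to d6 the count dropped to 1 in Cl19 without slide 1 and to 1 in 3c3 without slide 2 or slide 3.

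The d2 values of Cl19 rest in part on an array that stood apart. On replicate 1 of that group Apob measured 6.37 against 10.50 and 11.39, Ttr 7.94 against 10.46 and 11.9965, Afp 5.46 against 9.86 and 10.20, and Rbp4 7.49 against 8.97 and 10.25. Over all tested probes it differed from the other Cl19 d2 arrays by a root mean square of 0.88 and 0.92 and from the 3c3 d2 arrays by 0.38 to 0.54. Without it, the same 6 members rose from d0 to d2, and the rise of Apob from d2 to d4 became 1.23 (SE 0.66, adjusted p = 0.25 by limma) while that of Rbp4 was 1.85 (SE 0.47, adjusted p = 0.016 by limma).

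The d6 change differed between the lines for 5 of 10 members by limma's test of the difference itself, beside 17.4% of all tested probes. The change was larger in 3c3 for Apoa1 (difference, Cl19 minus 3c3, −5.25, SE 0.70, adjusted p = 2.7e-05) and for Apoa2 (−4.06, SE 0.82, adjusted p = 0.0015, by limma). It was larger in Cl19 for Apob (6.56, SE 1.27, adjusted p = 0.0010 by limma), and Cubn fell further in Cl19 (−2.87, SE 0.63, adjusted p = 0.0030 by limma). With dim values set to the lowest intensity above background, the difference of Apoa1 was −3.66 (adjusted p = 1.4e-04) and that of Apob was 6.91 (adjusted p = 4.1e-04, both by limma). The difference of Apoe (−0.51, SE 0.16, adjusted p = 0.026 by limma) missed the threshold under 10 of 26 alternatives.

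No difference between the lines passed for Apoa4, Ttr, Rbp4, Afp and Tf. Their 95% intervals (Cl19 minus 3c3, log2) reached from −3.77 to 0.23 for Apoa4, −3.69 to 1.57 for Ttr, 0.08 to 3.18 for Rbp4, −2.23 to 2.96 for Afp and −1.37 to 1.11 for Tf. These intervals are wide, and they do not show that the lines responded alike. For Rbp4 the difference passed with normexp correction (2.19, adjusted p = 0.013) and with the floor (2.90, adjusted p = 0.0090, both by limma).

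In primary SMC RNA, 9 of 10 members were not well above background on either array, and Apoe was at 8.29 and 8.27. All 10 were lower there than on d6 of Cl19 and of 3c3 by limma, as were 38.6% and 38.1% of all tested probes. The 9 at background passed the filter only through rMAPC arrays, so that their direction here was largely set by the filter. Their count is therefore not like the share over all probes, and nothing is drawn from it. The difference of Apoe from d6 of Cl19 was −8.59 (SE 0.12, adjusted p = 2.6e-21 by limma), or 384-fold lower, and from d6 of 3c3 it was −8.99 (SE 0.12, adjusted p = 1.6e-21 by limma). Apob was at least 643-fold lower than on d6 of Cl19 and at least 6.55-fold lower than on d6 of 3c3. The second of these calls rests on probe Apob 1, since from d6 of 3c3 probe Apob 2 differed by 1.32 (adjusted p = 0.13) and probe Apob 3 by −0.88 (adjusted p = 0.41, both by limma). On d6 of 3c3 probes Apob 2 and Apob 3 were at or near background (means 2.32 and 1.41), so that they could not show a much lower level. Scan day, RNA source and cell type cannot be told apart in these comparisons.

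Markers of other cell types were set beside these results, and their part in them was not tested. All 7 visceral endoderm markers were measured, of which 2 rose and 3 fell in Cl19, and 2 rose and 2 fell in 3c3. Vil1 (villin of microvilli) rose by 7.96 in Cl19 and at least 101-fold in 3c3, and Foxa2 rose by 0.66 and 0.50. Ihh and Amn fell in both lines, Dab2 fell in Cl19 only, Lrp2 did not pass, and Hnf4a changed by 0.11 in each (adjusted p = 0.83 by limma). The log2 of the summed intensity of these 7 lay between 15.40 and 15.95 on d0 and between 14.33 and 15.19 on d6. It was higher than on d0 on every d2 array (16.14 to 16.45 in Cl19 and 16.585 to 16.67 in 3c3). Such a sum follows its brightest genes and does not describe the whole list. Here these were Amn (means 14.79 and 15.07 on d0, 15.61 and 16.09 on d2) and, on d6, Foxa2 (13.93 and 13.88). Of 8 parietal endoderm markers measured, 7 fell and 1 (Plat) rose in Cl19, and 1 fell (Thbd) and 1 rose (Plat) in 3c3. Of 7 smooth muscle markers measured, 5 rose in each line (Cnn1, Tagln, Smtn, Lmod1 and Des), and Myocd passed downward in 3c3 at levels near background. The log2 of their summed intensity lay between 10.50 and 11.13 on d0 and between 14.82 and 16.16 on d6, where Tagln was brightest (means 15.85 and 14.78). The marker counts stand beside 22.0% of all tested probes higher and 30.3% lower in Cl19, and 19.7% and 28.6% in 3c3. The parietal counts of 3c3 did not exceed those shares.

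Of the hepatocyte markers, Alb, Tat and Cps1 were not well above background on any array, while Afp rose. G6pc passed upward in both lines (at least 1.32-fold and 2.03-fold) from background levels on d0, and Arg1 changed by −0.04 in Cl19 and 0.49 in 3c3 (adjusted p = 0.93 and 0.19 by limma). The endothelial markers Pecam1 fell in both lines and Tek fell in Cl19, and Cdh5, Vwf and Kdr did not pass. Of the adipocyte markers, Adipoq, Fabp4 and Lep were not tested, being too dim, and Cfd passed upward in both at levels near background. Of 6 macrophage and leukocyte markers, Csf1r rose in 3c3 by 6.24 (adjusted p = 4.6e-08 by limma) and changed by 1.03 in Cl19 (adjusted p = 0.14 by limma), Cd14 fell in Cl19, Cd68 did not pass, and Ptprc was above background on both primary SMC arrays and 1 other. The log2 of the summed intensity of these 6 lay between 7.57 and 7.97 on d6 of Cl19 and between 9.67 and 11.01 on d6 of 3c3, against 7.75 to 8.17 on d0 of both. On d6 of 3c3 the sum followed Csf1r, whose mean was 10.17.

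The lists below were counted by the same test, under which 22.0% of all tested probes rose and 30.3% fell in Cl19, while 19.7% rose and 28.6% fell in 3c3; counts near these shares say nothing particular of a list. Other apolipoproteins moved both ways. Of 8 tested among 11, 4 rose and 2 fell in Cl19 (median change 0.99) and 5 rose and 2 fell in 3c3 (median 2.20). Apod, a lipocalin, rose by 3.24 (adjusted p = 0.00025 by limma) in Cl19 and at least 19.4-fold in 3c3. Clu (clusterin) rose by 2.67 and 3.36, Apoa5 by 1.65 and 3.38, and Apom by 1.46 and 1.83. Apoc1, an inhibitor of lipoprotein uptake whose gene neighbours Apoe, fell by 2.83 in Cl19 and by 2.18 in 3c3, and Apoc4 fell by 1.15 and by 0.90. Apoc3, named after its values were seen, rose in 3c3 by 2.57 and changed by 0.52 in Cl19 (adjusted p = 0.18 by limma). Its d2 and d4 means in Cl19, 7.47 and 7.01, were above both its d0 mean of 4.30 and its d6 mean of 4.82. Apof, Apoh and Apon were too dim to test.

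Of 16 tested genes of lipoprotein assembly, remodelling and receptors, 4 rose and 8 fell in Cl19 (median −0.73) and 4 rose and 3 fell in 3c3 (median 0.22), with the risers near the share over all probes. Abcg1, a cholesterol exporter, rose by 6.28 and 3.41, Sort1 (sortilin, a sorting receptor that binds Apob) by 4.66 and 1.99, and Lrp1, an uptake receptor, by 2.90 and 1.52. Lipg (endothelial lipase) fell by 8.33 in Cl19 and by 2.76 in 3c3, and Lrp8, an Apoe receptor, fell by 3.23 and by 1.23, and Sar1b, which helps large lipoproteins leave the endoplasmic reticulum, fell by 0.79 and by 0.57. Vldlr, another uptake receptor named after its values were seen, rose in Cl19 by 2.90. Mttp, the transfer protein that loads lipid onto Apob, was chosen for description after its values were seen. It went from 4.79, 5.16 and 5.41 on d0 to 2.84, 2.19 and 4.88 on d6 in Cl19, a change of −1.82 (SE 0.63, adjusted p = 0.020 by limma). In 3c3 it went from 3.45, 3.77 and 3.84 to 6.95, 7.40 and 7.95, a change of 3.75 (SE 0.63, adjusted p = 6.7e-05 by limma). The difference of its change between the lines was −5.57 (SE 0.89, adjusted p = 0.00017 by limma). The d2 and d4 means of Mttp in Cl19, 6.87 and 6.79, were above its d0 mean of 5.12. Only the d6 mean, 3.30, was below it. In 3c3 the d2 and d4 means were 8.08 and 8.09. These courses are described without a test. Mttp was thus not below its d0 mean throughout the days over which Apob rose in Cl19.

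Of 14 other carriers and plasma proteins, 4 were tested and 10 were too dim, among them Alb, Afm, Gc, Ahsg, Cp and Orm1. Of those 4, 3 rose in Cl19 (median 2.06) and 2 in 3c3 (median 1.56). Hpx (hemopexin, the haem carrier) rose by 2.26 and 2.19, and Tcn2 (transcobalamin, the vitamin B12 carrier) by 2.31 and 2.73. Serpina1, named after its values were seen, rose in Cl19 by 1.86. Alb and Afm, which neighbour Afp in the RefSeq annotation, were not well above background on any array.

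Of 7 tested genes for uptake and cargo handling around Cubn, 2 rose and 4 fell in Cl19 (median −1.01), and 2 rose and 3 fell in 3c3 (median 0.36), with the risers near the share over all probes. Amn (amnionless), the partner that brings cubilin to the cell surface, changed by −3.40 in Cl19 and −1.61 in 3c3 (adjusted p = 1.5e-06 and 0.0039 by limma). Stra6, the receptor for Rbp4, fell at least 71.8-fold in Cl19 and by 2.70 on the log2 scale in 3c3. Tfrc, the transferrin receptor, fell by 1.90 and by 1.00. Dab2, an adaptor of cubilin uptake named after its values were seen, fell in Cl19 by 1.01. Fcgrt, the receptor that salvages IgG and albumin, rose by 7.40 in Cl19 and at least 52.6-fold in 3c3, and the iron exporter Slc40a1 rose by 1.603 and 3.26. Lrp2 (megalin), which works with cubilin, changed by 0.22 and 1.501 (adjusted p = 0.83 and 0.11 by limma).

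Of 8 tested endoderm transcription factors, 2 rose and 4 fell in Cl19 (median −1.66), and 2 rose and 3 fell in 3c3 (median −0.18), with the risers near the share over all probes. Foxa3 was not well above background on d0 in either line and rose at least 55.1-fold in Cl19 and at least 27.1-fold in 3c3. Like Apob, Foxa3 passed the filter only through groups after d0, so that its direction was largely set by the filter. Gata6, Sox7 and Sox17 fell in both lines, Sox17 by 4.12 in Cl19 and by 1.84 in 3c3. Named after its values were seen, Gata4 fell in Cl19 by 2.51 and changed by −0.48 in 3c3 (adjusted p = 0.21 by limma). Foxa1 and Nr5a2 were too dim to test.

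**Figure D4:**
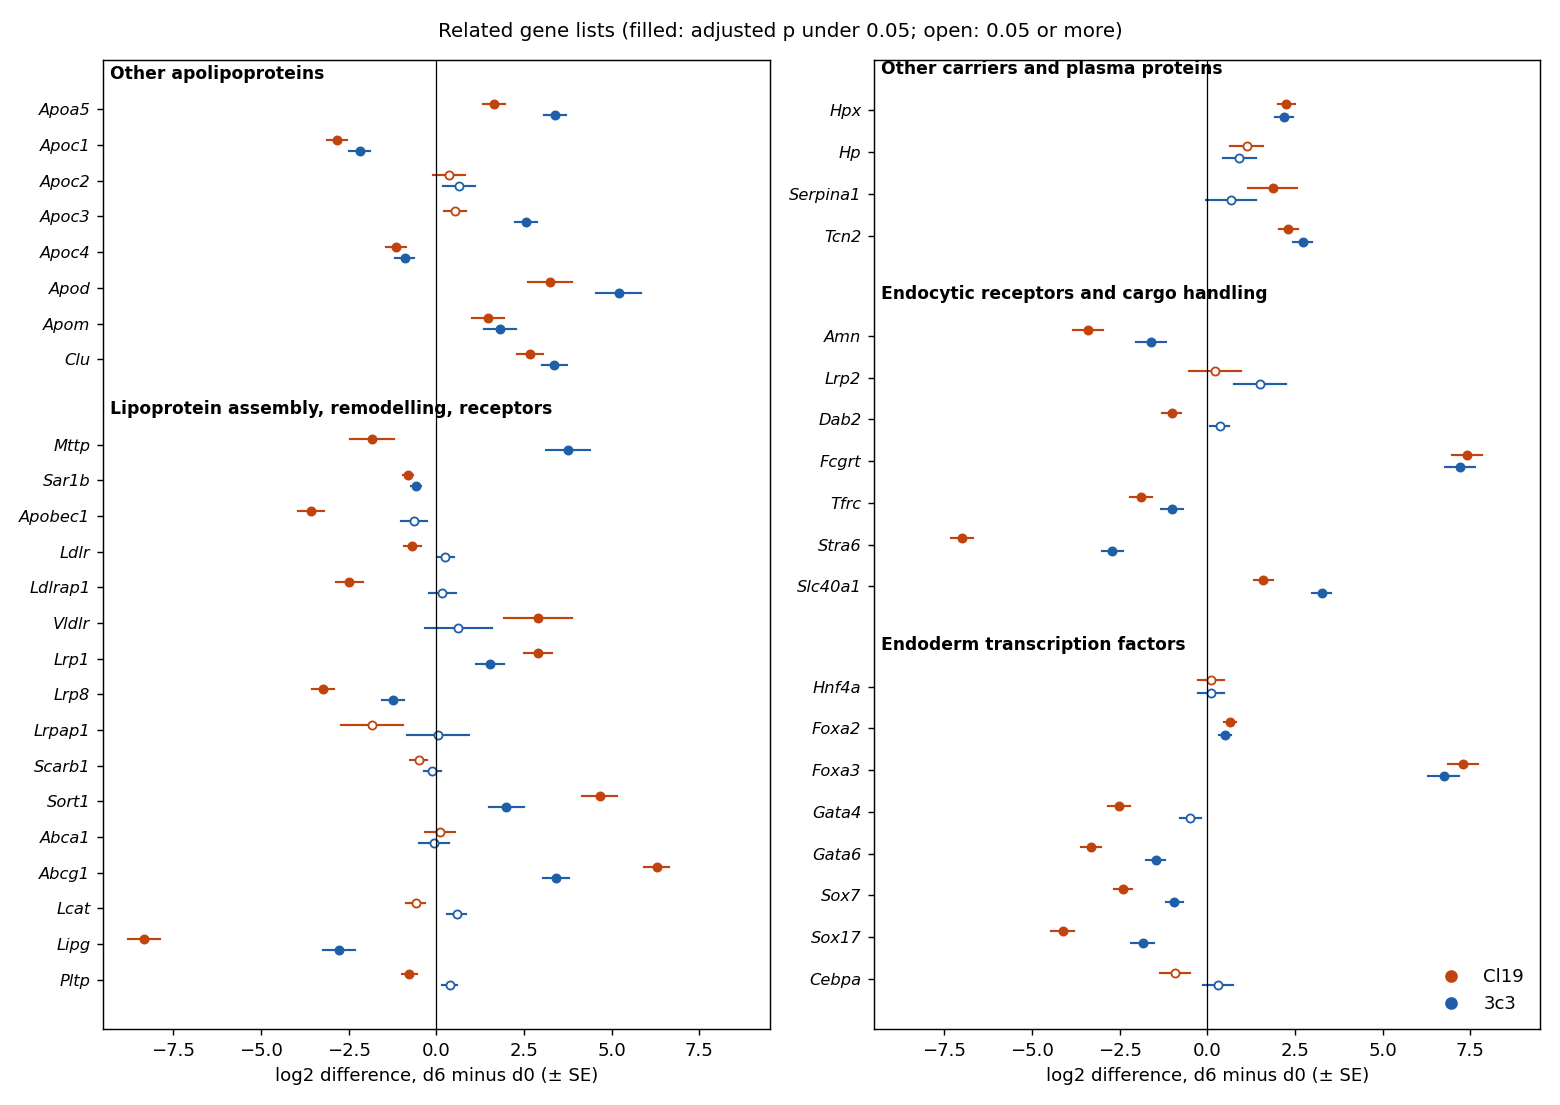
Difference in log2 intensity between d6 and d0 with its SE (x axis) for the tested genes of 5 related lists (y axis), red for Cl19 and blue for 3c3; filled points passed the adjusted p of 0.05. Foxa3 in both lines and Fcgrt and Apod in 3c3 are plotted against d0 values at background. Stra6 and Apobec1 in Cl19 were at background on d6, and Vldlr in 3c3 was at background on both days. The positions of all these points are not measured folds. Lipg lies at −8.33 in Cl19 and −2.76 in 3c3, and Mttp lies on opposite sides of 0.

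Over the 8 means of line and day, the members' courses were alike to different degrees, as a description without a test, since the means of a line share its slides. Pearson's r was 0.96 for Apoa1 with Ttr, 0.96 for Ttr with Afp, 0.94 for Apob with Rbp4 and 0.91 for Apoa4 with Rbp4, whereas Cubn had r of −0.67 with Afp. Among 10597 tested genes with a plain symbol, the courses most like those of the members were Coro7 for Apoa1 (r = 0.99), Gramd1b for Apoa4 (r = 0.99), Mzf1 for Apob (r = 0.995), Smad1 for Ttr (r = 0.99), Rpl31 for Rbp4 (r = 0.99), Dbp for Afp (r = 0.98), Slc9a5 for Apoa2 (r = 0.91) and Ilkap for Cubn (r = 0.99). The next in order were Lgmn, Pls3, Pfdn1, Svil, Ccdc106, Plekhg3, Fam107b and Dtl. Each is a pick of the highest r among 10597 genes over only 8 means. Such picking can reach high values by itself, and nothing is drawn from these names.

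Within slides, where the 4 days of a replicate shared a slide, the change from d0 to d6 had the same sign on 3 of 3 slides of each line for Apoa1, Apoa4, Apob, Ttr, Rbp4 and Afp (up) and for Cubn (down). It ranged from 5.75 to 6.32 for Apoa1 in Cl19. For Ttr it ranged from 5.73 to 8.49 in Cl19 and from 7.05 to 8.86 in 3c3. For Cubn it ranged from −5.67 to −3.83 in Cl19 and from −2.14 to −1.97 in 3c3. In the scanner files, 52.7% to 61.4% of gene features were well above background on Cl19 arrays, 43.2% to 57.1% on 3c3 arrays and 43.6% to 44.5% on primary SMC arrays, and no feature was saturated. The third slide of 3c3 had a higher background signal on negative control spots (28.3 to 44.5 against 10.9 to 14.0 on the others); without this slide the rise of Apoe in 3c3 became 0.35 (adjusted p = 0.076 by limma), and no other change from d0 to d6 of a member crossed the threshold.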

How the data were processed

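RNA of 2 rMAPC lines on 4 days (3 arrays each) and of primary SMCs (2 arrays) was labelled with Cy3 and hybridized to single-colour Agilent rat arrays. The authors deposited each array's scanner intensity (gProcessedSignal), corrected for background by Agilent Feature Extraction 10.1.1.1. They also deposited a table of log2 values, which equals the log2 of that intensity and is not normalized between arrays. Here log2 intensities of 43379 gene features were quantile-normalized over 26 arrays as the methods describe, features flagged as outliers were dropped, and features of a probe averaged. Quantile normalization removes changes shared by most genes, and dim values spread widely on the log2 scale.

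limma 3.58.1 in R 4.3.3 fitted 9 group means on 24442 probes that exceeded background throughout at least 1 group, and p-values were adjusted by Benjamini-Hochberg (threshold 0.05). "At least" folds replace dim values by each array's lowest intensity well above background. In simulated data for Cl19 d6 against d0, 24409 probes had independent noise and few were changed (66 or 67 of each size). There, 43.3% of changes of 1 on the log2 scale, 77.6% of 2 and 100% of 4 were recovered. Far more probes changed in the real data, and arrays of a slide correlated, so that these shares are not the power of the tests here. Arrays have no read depth, and the number of arrays limits the precision. Per the scanner files, arrays with the same replicate number shared a slide; deviations from group means correlated by over 0.1 in 16 of 18 same-slide pairs of Cl19 (lowest 0.06) and 18 of 18 of 3c3. Members, gene lists and tests were chosen with earlier results of these data known. Named were the 10 members, list genes past the threshold in the same direction in both lines (up to 4 per list and direction), the marker genes, and the 2 genes with the highest correlation to each member that passed the F-test in both lines; exceptions are stated. Some genes and a motif of these lists are not reported here and were left out of the counts. RefSeq names and promoters are of GRCr8 and probe positions of rn4. Python 3.11.15 read the files and drew the figures.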

Additional observations from a re-analysis of the deposited data

Results flagged for a closer look

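The change from d0 to d6 differed between the lines by limma's test of the difference itself (Cl19 minus 3c3, log2) for 5 members: Apoa1 (−5.25), Apoa2 (−4.06), Apob (6.56), Apoe (−0.51) and Cubn (−2.87). Of these, Apoa1 and Apob rest on d0 arrays at background in 3c3 or in both lines. Outside the members, Mttp was lower on d6 than on d0 in Cl19 and higher in 3c3, with a difference of −5.57 (adjusted p = 0.00017 by limma). Line and slide differ together, and each line was scanned on a day of its own, so that the scan day's part in these differences was not tested. Groups held 2 or 3 arrays, too few to test for a single array far from the others.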

How the results depend on the processing

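Of 660 alternative values of the members' d6 changes and line differences, 628 kept their direction and their side of the threshold, 13 no longer passed, 9 newly passed and 10 changed sign. All 10 changes of sign were in values that passed neither as reported nor under the alternative: the line difference of Afp was −0.65 with normexp and −0.72 to 0.92 without 1 array or slide, that of Tf was −0.48 to 0.41, and the d6 change of Apoe in Cl19 was −0.23 to 0.0058. Of 352 alternative counts, 325 stayed within 1.5 times. Scaling by the 75th percentile gave 2 members lower on d6 in Cl19 (Cubn and Apoe), beside 6 higher. The area method passed 6 members in 3c3 and 6 in Cl19, beside 2.45% and 6.1% of all tested probes. Members changed from d2 to d4 were 4 in Cl19 and 2 in 3c3 with normexp, 1 and 0 without the filter on dim probes, and 1 in Cl19 in a fit of that line alone, which gave 2 from d4 to d6. Leaving out 1 array or slide gave 0 to 3 members from d2 to d4 and 1 to 4 from d4 to d6 in Cl19, and 0 and 1 to 4 in 3c3, so that the step from d2 to d4 of Cubn in 3c3 was lost under every such alternative run; the lowest values in Cl19 came without slide 1, and those from d4 to d6 in 3c3 without slide 2 or 3. The cause was not tested. With the slide as replicate block, 9 members passed the F-test in Cl19 and 10 in 3c3, 3 changed from d2 to d4 in Cl19 and 5 from d4 to d6 in 3c3, and no call of a d6 change or line difference of a member changed. The t-test named in the methods gave 6 higher and 1 lower in Cl19 and 8 and 1 in 3c3, both at an unadjusted p of 0.05 and after Benjamini-Hochberg adjustment. Members lower in primary SMCs were 9 for each line with normexp. Leaving out each primary SMC and d6 array was added after the data were seen. Signal over background limits Apob, Apoa1 and Rbp4 on d0.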
